A study of Mus musculus with 8 samples.

Results

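The 8 genes Apoa1, Apoa4, Apob, Apoc2, Apoc3, Apoe, Mttp and Creb3l3 were read from a table of 54532 genes by their gene symbol, with 1 row found for each. They encode apolipoproteins, the protein that loads lipid onto apolipoprotein B, and a transcription factor of lipoprotein genes. RNA came from the duodenum of mice with a global heterozygous knockout of Zeb2 (Zeb2+/-, 4 libraries) and from wild-type mice with intact Zeb2 (WT, 4 libraries). The knockout is a model of Mowat-Wilson syndrome, in which the study asked about growth retardation and nutrient absorption. Both groups share the tissue and the library preparation. The sources used here give no age, sex, strain or treatment. They also do not tie a library to an animal, so the replicate spread behind every p-value below may be partly technical.

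Dietary fat leaves the enterocyte, the absorptive cell of the villus, inside chylomicrons. Each particle is built in the endoplasmic reticulum around apolipoprotein B, onto which the microsomal triglyceride transfer protein (Mttp) moves lipid. Apolipoproteins A-I and A-IV join the surface in the enterocyte. Apolipoproteins C-II, C-III and E act later, on the lipase that unloads the particle and on the receptors that clear the remnant. Creb3l3, a membrane-bound factor that is released by cleavage, drives transcription of several apolipoprotein genes in liver and gut.

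Depth was 13579347 to 16303910 gene reads per library in Zeb2+/- and 15780021 to 17137417 in WT. Zeb2 itself stood at 0.488, 0.173, 0.197 and 0.344 FPKM in Zeb2+/- libraries 1 to 4, against 0.991, 0.760, 1.19 and 0.8287 FPKM in WT libraries 1 to 4, without overlap (exact two-sided permutation p = 0.0286, the smallest that 4 against 4 allows; limma adjusted p = 0.0772 in a fit of all 27850 genes above 0). FPKM are fragment counts set relative to gene length and to library size. Libraries resembled one another less within Zeb2+/- (Pearson r of log2(FPKM + 1) 0.902 to 0.971) than within WT (0.972 to 0.981), and Zeb2+/- libraries 1 and 3 stood farthest apart. The duodenal label stood beside enterocyte and epithelial markers at 9886 to 27089 summed FPKM in Zeb2+/- and 16085 to 24036 in WT. Of 15 macrophage, 11 fibroblast and 12 pancreatic acinar markers tested, 7, 6 and 11 were lower in Zeb2+/- and 0 higher. Over all tested genes, 2.77% were lower and 0.468% higher (limma adjusted p below 0.05).

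None of the 8 genes passed the test for a difference between genotypes. Among all tested genes, 395 of 12190 passed limma's test at a Benjamini-Hochberg adjusted p below 0.05, which is 3.24%, with 0.468% higher and 2.77% lower in Zeb2+/-. All 8 genes reached the minimum mean of 1 FPKM that a gene needed to be tested. At an unadjusted p below 0.05, 1 of the 8 was called (Apoe, lower), where 18.9% of all tested genes were called, and 8.91% were called lower. For none of the 8 did the 4 Zeb2+/- libraries lie wholly above or below the 4 WT libraries, as they did for 14.5% of tested genes (7.65% above and 6.87% below). With voom on reads rebuilt from the FPKM, 0 of the 8 passed as well. The median log2 fold change of the 8 was -0.10, beside 0.0024 for all tested genes. A difference that misses the threshold does not show equal levels, and the intervals given below say how large a change these 8 libraries leave possible.

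**Figure D1:**
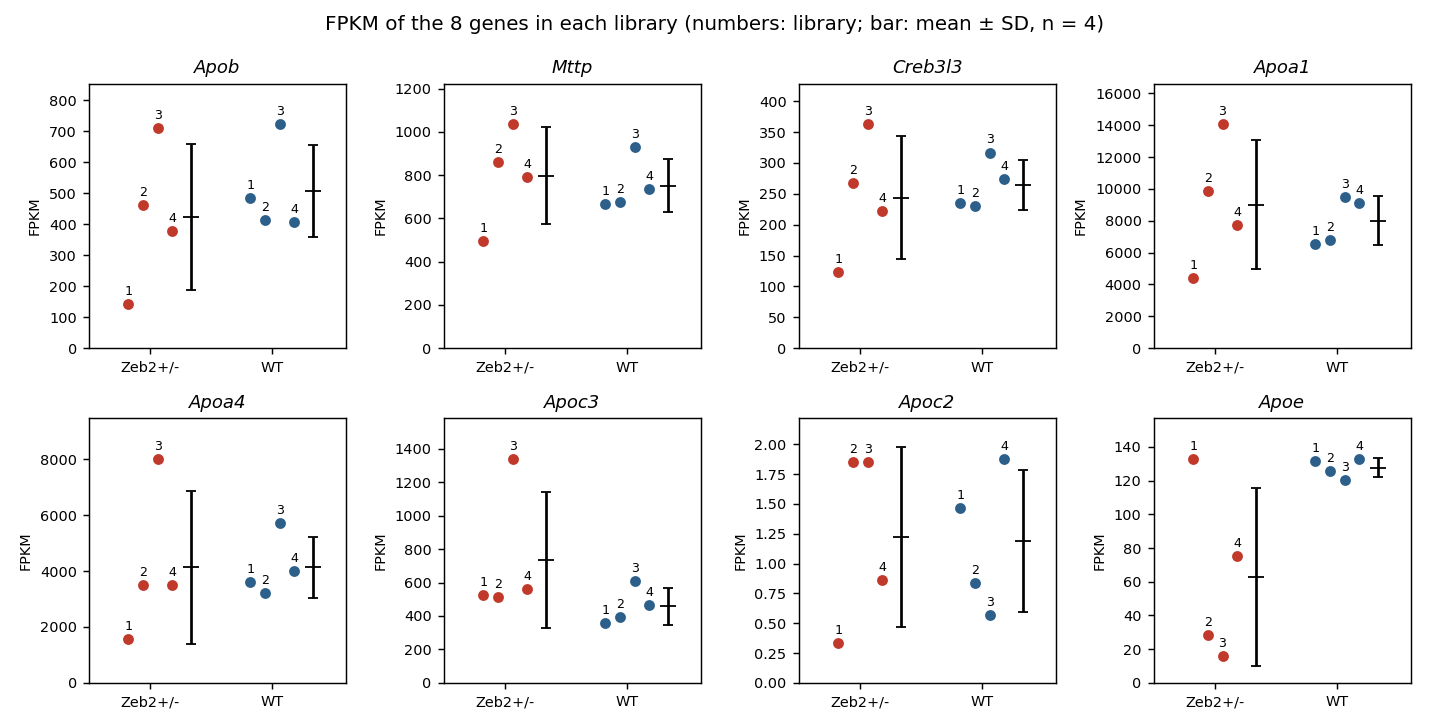
FPKM (y axes, linear from 0) of the 8 genes in each Zeb2+/- and WT library; points are libraries with their number, and black bars are the mean ± SD (n = 4 each). The genotypes overlap in every panel, and for Apoe 3 of the 4 Zeb2+/- points lie below the narrow WT cluster of 120.3 to 133.0 FPKM.

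Apob, the structural protein that each particle is built around (chromosome 12, 7977648 to 8016835, plus strand, GRCm38), was measured first among the assembly genes. It stood at 141.4, 462.0, 709.3 and 377.5 FPKM in Zeb2+/- libraries 1 to 4, against 484.0, 413.4, 722.9 and 406.5 FPKM in WT libraries 1 to 4. Zeb2+/- library 1 lay lowest, library 4 just below the lowest WT library, and library 3 within the WT range. The means were 422.6 ± 234.4 FPKM in Zeb2+/- and 506.7 ± 148.4 FPKM in WT (SD, n = 4 each). The log2 fold change was -0.44 (SE 0.45, limma adjusted p = 0.659), with a 95% interval of 0.364-fold to 1.504-fold on the scale of FPKM + 1. Without Zeb2+/- library 1 it was 0.017.

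Mttp (chromosome 3, 138089854 to 138144968, minus strand) transfers triglyceride and phospholipid onto nascent Apob. It stood at 497.5, 862.6, 1037 and 790.7 FPKM in Zeb2+/- libraries 1 to 4, against 665.6, 677.4, 928.5 and 735.3 FPKM in WT libraries. Zeb2+/- library 1 again lay below every WT library and library 3 above every one. The means were 796.9 ± 224.8 FPKM in Zeb2+/- and 751.7 ± 121.7 FPKM in WT (log2 fold change 0.048, SE 0.25, limma adjusted p = 0.943). The 95% interval ran from 0.699-fold to 1.53-fold, the narrowest of the 8 genes on the log2 scale.

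Creb3l3 (chromosome 10, 81084324 to 81098874, minus strand) is the transcription factor among the 8. Its levels were 122.8, 266.8, 363.2 and 222.5 FPKM in Zeb2+/- libraries 1 to 4, against 234.8, 230.9, 316.9 and 273.5 FPKM in WT libraries. Libraries 1 and 4 of Zeb2+/- lay below every WT library and library 3 above. The log2 fold change was -0.21 (SE 0.31, limma adjusted p = 0.774), and without Zeb2+/- library 1 it was 0.088. The protein is made inactive in the membrane and cut free by the site proteases, and the transcripts of those proteases, Mbtps1 (7.67 ± 1.23 FPKM in Zeb2+/- and 8.05 ± 0.425 FPKM in WT) and Mbtps2 (1.73 ± 0.297 FPKM in Zeb2+/- and 1.58 ± 0.0757 FPKM in WT), also missed the threshold (limma adjusted p = 0.804 and 0.778).

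Apoa1, the main protein of high-density lipoprotein and a surface protein of chylomicrons, was the most abundant of the 8 and ranked number 5 of all 54532 genes by mean FPKM. It lies on chromosome 9 (46228580 to 46230466, plus strand). The levels were 4393, 9848, 14079 and 7718 FPKM in Zeb2+/- libraries 1 to 4, against 6551, 6820, 9520 and 9102 FPKM in WT libraries. Zeb2+/- libraries 2 and 3 lay above every WT library and library 1 below every one. The means were 9010 ± 4057 FPKM in Zeb2+/- and 7998 ± 1529 FPKM in WT (log2 fold change 0.070, SE 0.36, limma adjusted p = 0.943), and the sign turned with the scaling, to -0.039 with TPM and -0.38 with quantile normalization.

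Apoa4, a surface protein that enterocytes make during fat absorption, lies close by on the same chromosome (46240696 to 46243459, plus strand). It stood at 1555, 3496, 8019 and 3485 FPKM in Zeb2+/- libraries 1 to 4, against 3606, 3217, 5709 and 4018 FPKM in WT libraries. Zeb2+/- library 1 lay below every WT library and library 3 above every one, with libraries 2 and 4 between WT libraries 2 and 1. The means were almost equal, 4139 ± 2743 FPKM in Zeb2+/- and 4138 ± 1098 FPKM in WT, while the highest library exceeded the lowest by 5.16-fold in Zeb2+/- and by 1.77-fold in WT. The log2 fold change was -0.20 (SE 0.45, limma adjusted p = 0.855), and it was 0.19 without Zeb2+/- library 1.

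Apoc3, an inhibitor of lipoprotein lipase and of remnant uptake, lies between Apoa1 and Apoa4 on the opposite strand (46232933 to 46235636). Its levels were 526.7, 510.8, 1340 and 558.3 FPKM in Zeb2+/- libraries 1 to 4, against 360.1, 394.5, 611.1 and 467.6 FPKM in WT libraries. All 4 Zeb2+/- libraries lay above WT libraries 1, 2 and 4, and only WT library 3 lay among them. With 734.0 ± 404.6 FPKM in Zeb2+/- and 458.3 ± 111.3 FPKM in WT, Apoc3 had the largest positive log2 fold change of the 8 (0.58, SE 0.34), and it did not pass (limma adjusted p = 0.397; interval 0.881-fold to 2.52-fold). Library 3 set much of its size, since the log2 fold change was 0.24 without it.

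Apoc2 (chromosome 7, 19671579 to 19677941, minus strand), the activator that lipoprotein lipase requires, was the least abundant of the 8. Its 0.331, 1.85, 1.85 and 0.863 FPKM in Zeb2+/- libraries 1 to 4 rested on 5 to 18 reads, and its 1.47, 0.841, 0.566 and 1.88 FPKM in WT libraries on 6 to 22 reads. Its fold change was close to 0 (log2 fold change -0.0055, SE 0.29, limma adjusted p = 0.994). The other 7 genes were counted with 412 to 207868 reads per library. Gm44805 overlaps Apoc2 on the same strand and is listed at 0 FPKM in every library, and how reads in the overlap were counted was not tested.

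Apoe, the ligand by which remnants are taken up, is made by macrophages and glia as well as by liver. It lies near Apoc2 on chromosome 7 (19696109 to 19699188, minus strand). Its levels were 132.5, 28.4, 16.1 and 75.0 FPKM in Zeb2+/- libraries 1 to 4, against 131.5, 125.8, 120.3 and 133.0 FPKM in WT libraries. WT libraries differed by 1.11-fold at most and Zeb2+/- libraries by 8.22-fold, with 3 below every WT library and library 1 at the WT level in FPKM. With every library set to the same sum (TPM), Zeb2+/- library 1 stood at 373.5 TPM, above the 265.3 to 338.6 TPM of WT libraries. The means were 63.0 ± 52.8 FPKM in Zeb2+/- and 127.6 ± 5.78 FPKM in WT. The log2 fold change of -1.44 (SE 0.56) had an interval of 0.152-fold to 0.899-fold and an unadjusted limma p of 0.0322, and it did not pass over all genes (limma adjusted p = 0.220). It missed the threshold without Zeb2+/- library 1 too (-1.93, limma adjusted p = 0.0689) and without library 3 (-0.94, limma adjusted p = 0.277), and it did so in all 21 alternatives tried (limma adjusted p 0.0689 to 0.399). Permuting its 8 values exactly gave a two-sided p of 0.114 (exact permutation test).

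**Figure D2:**
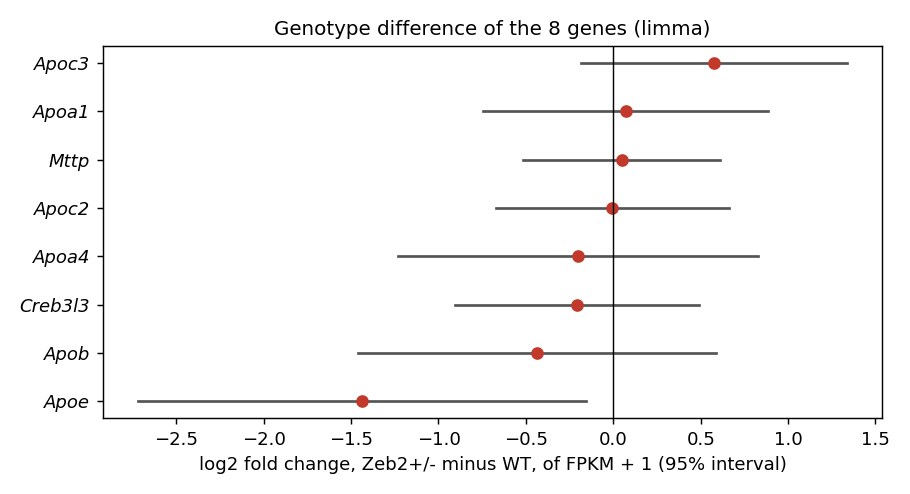
Log2 fold change (x axis, Zeb2+/- minus WT, of FPKM + 1) of each of the 8 genes (y axis), with limma's 95% interval as a line. The intervals of 7 genes cross 0, and that of Apoe, -2.72 to -0.15, does not, although its adjusted p of 0.220 missed the threshold.

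Of the 16 macrophage markers listed, 15 were tested, 7 fell and 0 rose, beside 2.77% of all tested genes that fell and 0.468% that rose. Values by library are given for 3 markers chosen after their values were seen. C1qa, a complement subunit made by macrophages, stood at 17.1, 8.94, 2.82 and 15.7 FPKM in Zeb2+/- libraries 1 to 4, against 40.4, 38.4, 32.0 and 41.7 FPKM in WT libraries (limma adjusted p = 0.0582). Csf1r, the receptor that keeps macrophages alive, fell to 4.997, 1.87, 0.497 and 3.19 FPKM in Zeb2+/- libraries, against 16.9, 12.99, 13.9 and 13.2 FPKM in WT (log2 fold change -2.24, limma adjusted p = 0.0127). Adgre1, which encodes F4/80, fell to 0.0776 to 0.650 FPKM in Zeb2+/- libraries, against 3.11 to 4.57 FPKM in WT (limma adjusted p = 0.000704). The summed level of the 16 markers was 407.0, 263.0, 288.9 and 386.8 FPKM in Zeb2+/- libraries, against 404.5, 433.8, 426.7 and 435.4 FPKM in WT libraries, so that library 1 lay within the WT range and the other 3 Zeb2+/- libraries below it.

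In Zeb2+/- library 1, where Apoe stood at the WT level in FPKM, all 3 of these markers were below every WT library. Other markers on the macrophage list did not follow them. Lyz2, the lysozyme of macrophages, stood at 202.3, 17.0, 6.36 and 142.4 FPKM in Zeb2+/- libraries 1 to 4, against 74.6, 85.4, 56.3 and 63.9 FPKM in WT libraries, so that libraries 1 and 4 were above and libraries 2 and 3 below every WT library. Cd68, a lysosomal protein of macrophages, was within the WT range in Zeb2+/- library 1 (3.38 FPKM, against 3.36 to 4.82 FPKM in WT). Clu, also known as apolipoprotein J, stood at 85.0, 1.80, 0.950 and 45.5 FPKM in Zeb2+/- libraries, against 14.0, 16.3, 1.87 and 3.21 FPKM in WT libraries, again with libraries 1 and 4 above every WT library. Adipoq, an adipocyte gene, was highest in Zeb2+/- library 1 (10.5 FPKM, against 0.226 to 2.12 FPKM in the other Zeb2+/- libraries and 0.0480 to 3.82 FPKM in WT). The 10 adipocyte markers listed summed to 238.5, 193.8, 211.1 and 117.6 FPKM in Zeb2+/- libraries 1 to 4, against 121.4 to 193.2 FPKM in WT. Of these markers, 6 were tested and 0 passed. Cfd (122.6 FPKM), Fabp4 (17.7 FPKM), Plin1, Retn, Adrb3 and Lep were also highest in Zeb2+/- library 1. Pnpla2, Lipe and Cidec were lowest there. The part of these cell types in the Apoe values was not tested. In RNA of whole tissue, fewer cells of a type and less RNA per cell cannot be told apart. Of 18 hepatocyte markers listed, 5 were tested and 0 passed. The plasma protein genes Alb, Fga and Fgb, which define hepatocytes, stood at 5.53, 0.0518 and 0.409 FPKM in Zeb2+/- library 4 and at no more than 0.398, 0.0206 and 0 FPKM in the other 7 libraries. The list's abundant genes, Cps1 (72.7 to 191.7 FPKM in Zeb2+/- and 195.3 to 222.7 FPKM in WT) and Cyp3a11 (133.2 to 506.1 FPKM in Zeb2+/- and 281.3 to 719.0 FPKM in WT), are expressed by enterocytes as well. The glial genes Sox10 and Gfap reached at most 0.695 and 0.459 FPKM in any library. Of 9 enteric glia markers 2 were tested and 1 fell, the endothelin receptor Ednrb (limma adjusted p = 0.00477), beside 2.77% of all tested genes.

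**Figure D3:**
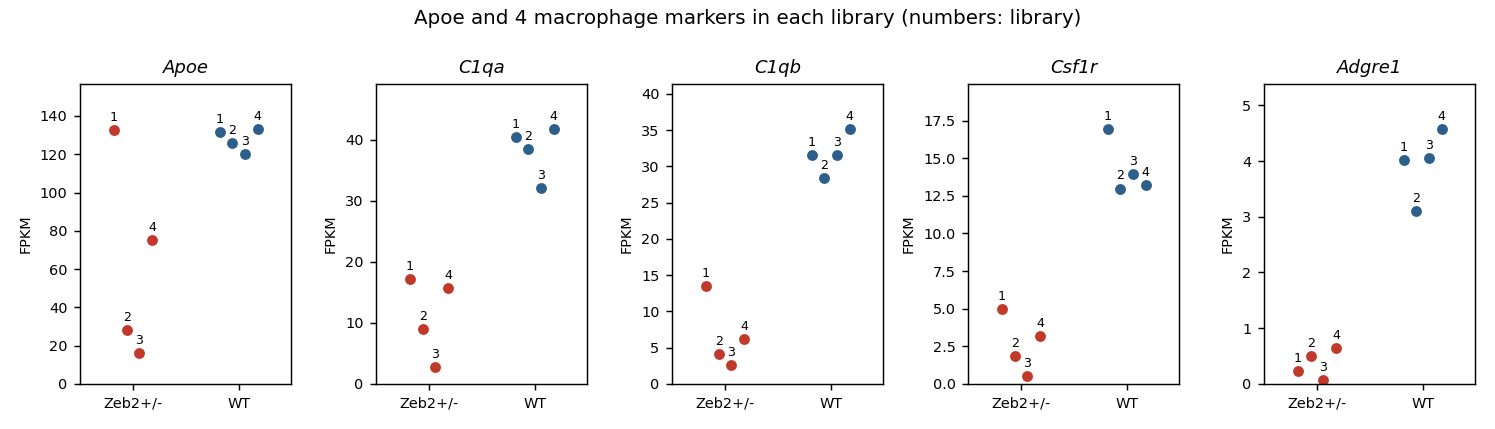
FPKM (y axes, linear from 0) of Apoe and of the macrophage markers C1qa, C1qb, Csf1r and Adgre1 in each Zeb2+/- and WT library, with library numbers. The markers are below the WT range in all 4 Zeb2+/- libraries, whereas Apoe in Zeb2+/- library 1 (132.5 FPKM) lies within it.

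The levels of 5 of the 8 genes varied together from library to library, and Apoc3 varied with them less closely over all 8 libraries. Zeb2+/- library 1 had the lowest value of all 8 libraries for 6 genes (Apoa1, Apoa4, Apob, Apoc2, Mttp and Creb3l3). Zeb2+/- library 3 had the highest FPKM for 5 (Apoa1, Apoa4, Apoc3, Mttp and Creb3l3) and the lowest for Apoe. In TPM, Mttp and Creb3l3 were highest in WT library 3 (2047 and 699 TPM, against 1881 and 659 TPM in Zeb2+/- library 3). The summed FPKM of a whole library was lowest in Zeb2+/- library 1 and highest in Zeb2+/- library 3. With both left out, a comparison chosen after the data were seen, the log2 fold changes were 0.14 for Apoa1, -0.21 for Apoa4, -0.24 for Apob, 0.25 for Apoc3, 0.15 for Mttp, -0.10 for Creb3l3 and -1.44 for Apoe, and 0 of the 8 genes passed (limma adjusted p = 0.108 for Apoe and 0.588 to 0.868 for the others). As deviations from the genotype mean of log2(FPKM + 1) over 8 libraries, the 10 pairs among Apoa1, Apoa4, Apob, Mttp and Creb3l3 had Pearson r of 0.921 to 0.989. These values share library, depth and scale, and they rest in part on the extreme libraries, since r was 0.538 to 0.952 without Zeb2+/- libraries 1 and 3. Apoe ran the other way with all 5 (r -0.841 to -0.910), and this rested on those libraries, with r of -0.076 to -0.499 without them. Apoc3 had r of 0.663 to 0.839 with the same 5 genes. Without Zeb2+/- libraries 1 and 3 its r was 0.648 to 0.919, so that comparison did not set Apoc3 apart from the 5. Apoc2 had r of 0.514 to 0.677 with the 5, and -0.401 to 0.146 without those libraries.

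Of the 9 villus tip markers listed, 8 were tested and 0 passed. Their sum was also lowest in library 1 and highest in library 3 of Zeb2+/-. It was 261.8, 1529, 3494 and 1359 FPKM in Zeb2+/- libraries 1 to 4, against 1759, 1216, 3033 and 1844 FPKM in WT libraries. Not every marker followed the sum. Among Zeb2+/- libraries, Neat1 was lowest in library 4 (15.6 FPKM) and Egfr was highest in library 2 (1.65 FPKM). Krt20, a keratin of differentiated enterocytes, stood at 368.3, 1115, 1851 and 972.0 FPKM in Zeb2+/- libraries 1 to 4, against 1045, 1050, 1704 and 1197 FPKM in WT libraries, and its r with the 5 genes was 0.970 to 0.993. Ada, adenosine deaminase of the villus tip, ranged more widely, at 81.7, 683.6, 1739 and 725.3 FPKM in Zeb2+/- libraries, against 838.1, 493.9, 1618 and 748.9 FPKM in WT. Epcam, carried by epithelial cells from crypt to tip, stood at 692.9, 905.4, 1191 and 823.2 FPKM in Zeb2+/- libraries, against 626.4, 665.4, 764.8 and 751.5 FPKM in WT libraries. In FPKM, library 1 was again the lowest and library 3 the highest of the 4 Zeb2+/- libraries, and library 1 lay within the WT range. The summed FPKM of whole libraries ran the same way, at 354907 in Zeb2+/- library 1 and 551183 in Zeb2+/- library 3. The part of this scale in the Epcam values was not tested. With the mean level of 6 epithelial genes set equal in every library, the log2 fold changes were -0.57 for Apob, -0.082 for Mttp, -0.34 for Creb3l3, -0.060 for Apoa1, -0.33 for Apoa4, -0.14 for Apoc2, 0.45 for Apoc3 and -1.57 for Apoe, relative to a median of -0.13 over all tested genes on that scale. None of these passed (limma adjusted p = 0.245 to 0.925). The part of villus maturity in the spread was not tested.

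**Figure D4:**
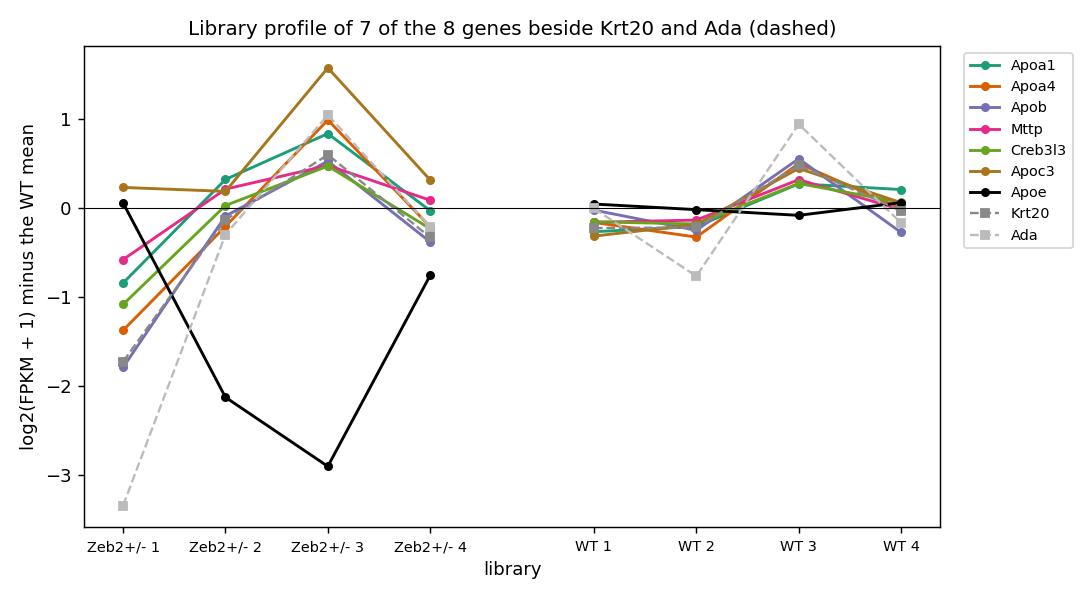
Log2(FPKM + 1) minus the WT mean (y axis) of 7 of the 8 genes in each library (x axis, Zeb2+/- left, WT right), with the enterocyte genes Krt20 and Ada dashed; lines only join libraries of a genotype. Apob and Krt20 lie at -1.79 and -1.73 in Zeb2+/- library 1 and at 0.53 and 0.60 in Zeb2+/- library 3, while Apoe lies at 0.055 and -2.91.

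By likeness of their deviations over the 8 libraries, among 10836 protein-coding genes tested, the nearest genes to Apoa1 were Pla2g12b, Anxa4 and Apobec1 (r = 0.998 for each). Pla2g12b is needed for lipid loading of lipoproteins in zebrafish and mouse, and Apobec1 edits the Apob transcript to the short gut form. Rxra and Gpr151 were among the 3 nearest to Apob (r = 0.997 for each), those of Mttp were Ptbp3, Lonp2 and Degs2 (r = 0.996 to 0.998), and those of Creb3l3 were Mtus1, Mpp1 and Cyp4f14 (r = 0.998 to 0.999). Apoa4 was nearest to Pi4k2b, Slc25a24 and Il15 (r = 0.997 to 0.998), and Apoc3 to Arl13b, Ftl1-ps1 and Lamtor2 (r = 0.990 to 0.995). For Apoe they were Rnase6, Yeats2 and Fgd2 (r = 0.993 to 0.994), and for the low Apoc2 they were Ints12, Lnpk and Zfp207 (r = 0.964 to 0.972).

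Promoter stretches of Apoa1, Apoa4, Apob and Creb3l3 are shown because their levels varied together between libraries. Mttp did too, and its window lies inside the deposited gene. RefSeq windows of GRCm38.p6 were found for 7 of the 8 genes, and Apoc3 had none. The stretches end where the deposited gene begins. They are chr9:46228380-46228579 (plus strand) for Apoa1, chr9:46240594-46240695 (plus) for Apoa4, chr12:7977427-7977647 (plus) for Apob and chr10:81098875-81099122 (minus) for Creb3l3. That of Apoa4 overlaps Gm47528, and the others overlap no gene of the deposited table. Capitals mark CACCTG, the E-box form that ZEB proteins bind, on either strand, and TATAAA.
Apoa1: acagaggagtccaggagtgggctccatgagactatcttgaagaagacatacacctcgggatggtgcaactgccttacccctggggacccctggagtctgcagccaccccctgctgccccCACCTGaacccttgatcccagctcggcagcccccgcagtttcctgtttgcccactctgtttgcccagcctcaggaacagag
Apoa4: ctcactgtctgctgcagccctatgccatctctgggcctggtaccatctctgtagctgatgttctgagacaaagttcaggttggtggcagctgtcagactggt
Apob: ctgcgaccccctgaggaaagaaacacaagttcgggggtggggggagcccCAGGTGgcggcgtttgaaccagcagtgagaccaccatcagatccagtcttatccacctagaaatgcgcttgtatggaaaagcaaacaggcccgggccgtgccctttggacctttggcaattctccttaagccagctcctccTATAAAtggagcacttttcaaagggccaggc
Creb3l3: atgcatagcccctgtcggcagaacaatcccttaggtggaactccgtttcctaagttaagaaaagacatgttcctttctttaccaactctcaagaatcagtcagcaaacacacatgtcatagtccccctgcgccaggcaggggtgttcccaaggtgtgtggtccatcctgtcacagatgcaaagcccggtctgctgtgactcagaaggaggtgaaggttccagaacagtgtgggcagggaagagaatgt

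CACCTG was found, on either strand, in the windows of Apoa1 and Apob and in one of Apoe that starts inside the gene, and in 17.2% of all 32851 RefSeq windows of 250 bases before a start. In Apoa1 it ran from 131 to 126 bases before the RefSeq start, and in Apob from 201 to 196 bases before it, on the opposite strand. Distances are counted from the ends of the windows, 46228629 for Apoa1 and 7977676 for Apob. These ends lie inside the deposited genes, past the ends of the stretches shown. TATAAA was found in the window of Apob, from 60 to 55 bases before the RefSeq start, in that same window of Apoe, and in 12.4% of all windows. The cAMP response element half-site TGACG was searched because Creb3l3 is of that factor family. It was found in the windows of Apoc2 and Mttp, in 1 window of Creb3l3 that lies inside the gene, and in 17.8% of all windows. CAAAGTC, a core of the element bound by HNF4 factors, was found in that same window of Creb3l3 and in 3.84% of all windows. The Creb3l3 stretch shown held none of these strings. No one of these letter strings was shared by the 4 genes shown, and a match is a description of the sequence only.

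Each of the other 7 genes was set against Apob within each library, and none of the 7 ratios differed past the threshold between Zeb2+/- and WT. All 7 share the Apob values, including the low one of Zeb2+/- library 1, so their directions are not independent. A ratio within a library does not depend on how the library was scaled. Apoc3 stood at 3.72, 1.11, 1.89 and 1.48 times the FPKM of Apob in Zeb2+/- libraries 1 to 4, against 0.744, 0.954, 0.845 and 1.15 times in WT libraries. Only Zeb2+/- library 2 and WT library 4 crossed (difference in log2 ratio 1.01, exact two-sided permutation p = 0.0571, adjusted over 7 ratios 0.267). Apoa1 stood at 31.1, 21.3, 19.8 and 20.4 times Apob in Zeb2+/-, against 13.5, 16.5, 13.2 and 22.4 times in WT (difference 0.51, exact permutation p = 0.114, adjusted 0.267), so that WT library 4 lay among the Zeb2+/- libraries. Mttp stood at 3.52, 1.87, 1.46 and 2.09 times Apob in Zeb2+/-, against 1.38, 1.64, 1.28 and 1.81 times in WT (difference 0.49, exact permutation p = 0.114, adjusted 0.267). The differences for Apoa4, Creb3l3 and Apoc2 were 0.24, 0.23 and 0.33 and that for Apoe was -1.03 (exact permutation, adjusted p = 0.400 to 0.743). Without Zeb2+/- library 1 the differences were 0.68 for Apoc3, 0.36 for Apoa1, 0.24 for Mttp, 0.17 for Apoa4, 0.071 for Creb3l3, 0.41 for Apoc2 and -1.99 for Apoe. That for Apoe was -0.20 without Zeb2+/- library 3.

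**Figure D5:**
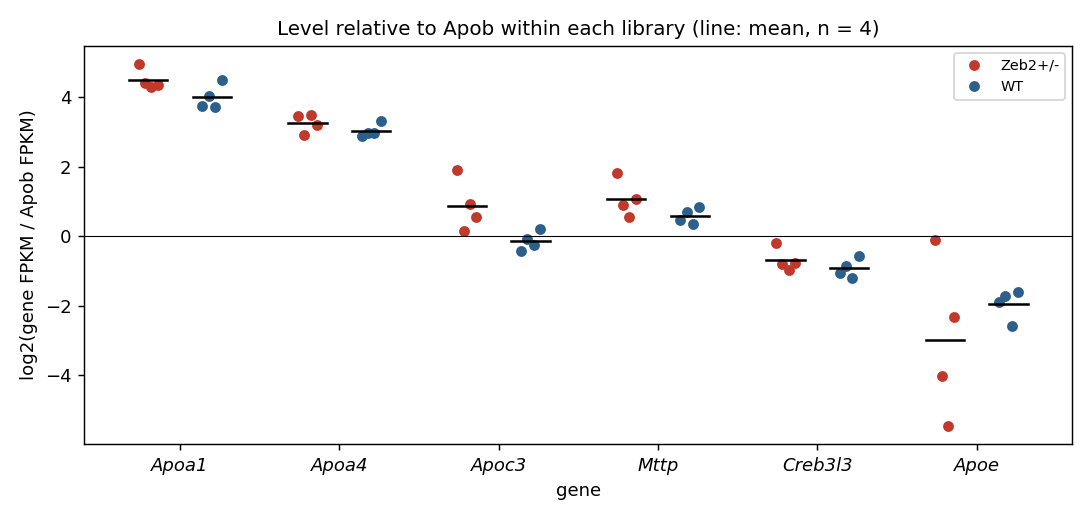
Log2 of gene FPKM over Apob FPKM within each library (y axis) for 6 genes (x axis), with Zeb2+/- points left of WT points and the mean as a line (n = 4 each). For Apoc3 the means are 0.88 in Zeb2+/- and -0.13 in WT with 1 crossing of the groups, and for Apoe the Zeb2+/- points spread from -5.46 to -0.093.

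By mean FPKM, the order of levels in Zeb2+/- was Apoa1, Apoa4, Mttp, Apoc3, Apob, Creb3l3, Apoe and Apoc2. In WT it was Apoa1, Apoa4, Mttp, Apob, Apoc3, Creb3l3, Apoe and Apoc2. Mttp and Apoc3 had close means in Zeb2+/- (796.9 ± 224.8 and 734.0 ± 404.6 FPKM), as did Apob and Apoc3 in WT (506.7 ± 148.4 and 458.3 ± 111.3 FPKM). These genes were measured in the same libraries, and their order within a library was not tested. The 8 genes took 2.08%, 3.20%, 4.64% and 3.08% of the summed FPKM in Zeb2+/- libraries 1 to 4, against 3.10%, 2.99%, 3.95% and 3.53% in WT libraries, and Apoa1 alone made up 55.1% to 63.6% of that in Zeb2+/- and 53.1% to 60.1% in WT. The summed FPKM of a whole library ranged from 354907 to 551183 in Zeb2+/- and from 388314 to 453494 in WT, lowest in library 1 and highest in library 3 of Zeb2+/-. With every library set to the same sum (TPM), Apoa1 stood at 12377, 20347, 25544 and 17981 TPM in Zeb2+/- libraries, against 16872, 17145, 20992 and 21218 TPM in WT, so that the order within Zeb2+/- stayed and the spread was smaller.

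Of 31 genes for lipid loading and export from the endoplasmic reticulum, all were tested and 0 passed limma's test, with a median log2 fold change of -0.024. Before adjustment, 2 had a p under 0.05, both higher in Zeb2+/-, where 18.9% of all tested genes had such a p. They were Bnip1 (3.63 ± 0.531 FPKM in Zeb2+/- and 2.60 ± 0.302 FPKM in WT, limma adjusted p = 0.154) and Preb, which loads the Sar1 GTPase (18.6 ± 2.08 FPKM in Zeb2+/- and 15.2 ± 1.17 FPKM in WT, limma adjusted p = 0.255). Dgat2, which makes triglyceride, averaged 245.3 ± 122.9 FPKM in Zeb2+/- and 400.004 ± 74.8 FPKM in WT (log2 fold change -0.85, limma adjusted p = 0.273). The assembly partner of Mttp, P4hb, averaged 1566 ± 400.0 FPKM in Zeb2+/- and 1348 ± 206.1 FPKM in WT (limma adjusted p = 0.726). Of the 3 genes that edit the Apob transcript, A1cf, the cofactor of the editing enzyme, averaged 14.7 ± 8.07 FPKM in Zeb2+/- and 24.9 ± 4.79 FPKM in WT (limma adjusted p = 0.294), and 0 of 3 passed.

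Among 31 tested transcription factors that act on apolipoprotein genes, 0 passed and 22 had a negative log2 fold change, with a median of -0.12. Before adjustment, 4 of these 31 had a p under 0.05, all lower in Zeb2+/-, beside 8.91% of all tested genes that were lower and 18.9% in either direction. Ppara, the fatty acid receptor that induces lipid handling genes, stood at 3.49, 10.04, 10.4 and 9.33 FPKM in Zeb2+/- libraries 1 to 4, against 14.7, 16.02, 20.03 and 13.7 FPKM in WT libraries, without overlap (log2 fold change -0.96, SE 0.29, limma adjusted p = 0.129). Hnf4g, a nuclear receptor of enterocytes, averaged 147.8 ± 56.3 FPKM in Zeb2+/- and 238.3 ± 52.5 FPKM in WT, also without overlap (limma adjusted p = 0.261). Ppargc1b and Esrrg were the others (limma adjusted p = 0.262 for each). Of all tested genes, 6.87% lay wholly below WT without overlap.

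Of 21 further apolipoprotein genes listed, 9 were tested, 2 fell and 0 rose, beside 2.77% of all tested genes that fell and 0.468% that rose. Both that fell belong to the apolipoprotein L family. Apol7c stood at 4.18, 3.27, 0.772 and 3.26 FPKM in Zeb2+/- libraries 1 to 4, against 14.9, 15.7, 15.2 and 14.1 FPKM in WT libraries (log2 fold change -2.15, SE 0.30, limma adjusted p = 0.00495). Apol10b fell to 0.505 ± 0.0975 FPKM, against 1.93 ± 0.495 FPKM in WT (limma adjusted p = 0.0142). Apoa2, a protein of high-density lipoprotein, stood at 5.01, 6.59, 4.37 and 6.68 FPKM in Zeb2+/- libraries, against 2.84, 4.05, 3.43 and 3.36 FPKM in WT libraries, and Apol10a at 58.5, 115.8, 78.2 and 56.1 FPKM in Zeb2+/- libraries, against 26.4, 41.7, 32.5 and 45.7 FPKM in WT. Neither overlapped between genotypes and neither passed (limma adjusted p = 0.0770 for each). Of all tested genes, 14.5% did not overlap either, with 7.65% above and 6.87% below WT.

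Of 28 lipoprotein receptors, lipases and remodelling genes, 19 were tested, 2 fell and 0 rose, with a median log2 fold change of -0.16. Over all tested genes, 2.77% fell and 0.468% rose. Pltp, which moves phospholipid between lipoproteins, fell to 1.09 ± 0.719 FPKM in Zeb2+/-, against 3.44 ± 0.421 FPKM in WT (limma adjusted p = 0.0222). Stab1, a scavenger receptor of macrophages and endothelium, fell to 1.76 ± 0.373 FPKM in Zeb2+/-, against 3.83 ± 0.520 FPKM in WT (limma adjusted p = 0.0130). The macrophage markers that were lower in the same libraries are given above, and their part in both values was not tested. Of 9 genes listed for activation and targets of Creb3l3, 5 were tested and 0 passed, with the lipid droplet gene Cidec at 66.7 ± 30.0 FPKM in Zeb2+/- and 69.8 ± 18.03 FPKM in WT (limma adjusted p = 0.865).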

How the data were processed

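Polyadenylated RNA of duodenum was made into directional libraries, per the labels' protocols. The submitters' processing notes name the GRCm38 (mm10) build, the aligner HISAT2 2.0.5 and the counter featureCounts 1.5.0-p3, while the strand setting and filters were not stated. The authors deposited FPKM per gene with symbol, position and a gene length (an other-unit column in bases, per the file headers). Multiplied by length, 100% of values above 0 came out as whole reads (tolerance 0.01), and reads were rebuilt from them. The library total inside the FPKM was 0.733 to 1.16 times the rebuilt sum, by a rule that no source states. Gm47528, Gm43691 and Trmt10a overlap Apoa4 and Mttp on the opposite strand, at up to 11.6 FPKM.

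Values were tested as log2(FPKM + 1) with limma 3.58.1 in R 4.3.3 (lmFit, eBayes with trend and robust, genotype as the only term, two-sided, Benjamini-Hochberg over 12190 genes whose FPKM averaged 1 or more). Folds are on that scale, which understates changes of low genes. Alternatives changed the pseudocount, filter, scaling, variance model, weights, unit and libraries. Ratios to Apob used exact permutation tests. The 8 genes and all lists were chosen with earlier results of these data known, so no test over a list was made. Named genes are the 8, Zeb2, and from each list those past the threshold or up to 4 of smallest p. Apoa2, Apol10a, Krt20, Ada, Epcam, C1qa, Csf1r, Adgre1, Lyz2, Cd68, Clu, P4hb, Mbtps1, Mbtps2, Cidec and the adipocyte, glial and hepatocyte genes were named after their values were seen. Some genes that these rules name are not reported here.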

Additional observations from a re-analysis of the deposited data

Results flagged for a closer look

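Among 30 groups of 4 values examined (8 genes and 7 ratios in each genotype), 2 held a library whose gap to the nearest other exceeded Dixon's 95% limit; chance gives about 1 in 20 groups. Apoc3 in Zeb2+/- library 3 stood at 1340 FPKM, against 510.8 to 558.3 FPKM in the other Zeb2+/- libraries. The log2 ratio of Apoa1 to Apob in Zeb2+/- library 1 was 4.96, against 4.31 to 4.41 in the other Zeb2+/- libraries.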

How the results depend on the processing

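None of the 8 genes passed in any of 21 alternatives. Apoc3 stayed positive (0.24 to 0.72) and Apoe negative (-1.93 to -0.94) in all of theirs, while genes near 0 changed sign, and without a test past the threshold the sign of these carries no call. Apoa1 was -0.039 with TPM scaling, -0.38 with quantile normalization and -0.060 with epithelial genes set equal; Mttp was -0.061 with TPM scaling and -0.082 with epithelial genes set equal. Apoc2, which has no value with a minimum mean of 5 FPKM, was 0.0052 with a pseudocount of 5, 0.21 with quantile normalization, and 0.12 without Zeb2+/- libraries 1 and 3, an alternative chosen after seeing the data. With 1 library left out in turn, the log2 fold change ran from -0.19 to 0.37 for Apoa1, -0.60 to 0.19 for Apoa4, -0.76 to 0.017 for Apob, -0.15 to 0.22 for Apoc2, -0.095 to 0.26 for Mttp and -0.43 to 0.088 for Creb3l3, and the log2 ratio of Apoc2 to Apob from -0.16 to 0.69. The count of changed genes was 395, and 157 with a minimum mean of 5 FPKM, 1187 with array weights (493 higher, 694 lower) and 218 to 487 with 1 library left out, lowest without WT library 1 (218), 4 (225) or 2 (253). Zeb2 was at -0.58 (limma adjusted p = 0.0772), and passed without trend and robust (-0.58, 0.0417), with array weights (-0.59, 0.0463) and with voom (-1.67, 0.0156). The deviations of same-numbered libraries correlated at 0.24, -0.16, 0.33 and -0.19, over 0.1 in 2 of 4 pairs, so the numbers were not taken as pairs; with the replicate block 299 genes passed (23 higher, 276 lower) and 0 of the 8. Epithelial scaling moved the median of all tested genes to -0.13 and gave 9 higher and 342 lower genes, beside 57 higher and 338 lower. Apoc2 rests on 5 to 22 reads per library and the other 7 genes on 412 or more.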
